A study of Homo sapiens with 20 samples.

Results

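The genes described here are 10 feedback regulators, subunits and target genes of the transcription factor NF-kappaB, followed through HEL cells, an established human erythroleukaemia line that carries the JAK2 V617F change. They are NFKBIA, TNFAIP3, NFKB1, NFKB2, RELB, TRAF1, BIRC3, TNFAIP2, ICAM1 and SOD2. They were picked by symbol, with 1 row for each Ensembl identifier, from 3 deposited tables of gene counts that together list 55159 identifiers, and all 10 passed the low-count filter in each table. In the first table cells had received 1 µM BCI, an inhibitor of the dual-specificity phosphatases DUSP1 and DUSP6, or its solvent DMSO, for 4 h or for 48 h. The second table held cells given 10 µM BI-D1870, an inhibitor of the RSK kinases, cells given BI-D1870 with 1 µM BCI, and cells given DMSO, each for 24 h. The third held fedratinib-persistent (FedP) and ruxolitinib-persistent (RuxP) cells, obtained by long culture with these JAK2 inhibitors, beside parental cells. Whether a persistent line is a clone or a pool, and whether inhibitor was in the medium at harvest, is not given in the sources used here. Each of the 10 groups had 2 libraries. Columns of the first table for the later time are headed 24 h where the sample labels give 48 h, and the labels were followed.

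NF-kappaB proteins are dimers that wait in the cytoplasm, bound by inhibitory IkappaB proteins, until a receptor signal activates the IkappaB kinases and the inhibitor is destroyed. The freed dimers then enter the nucleus and switch on genes of inflammation, adhesion and survival, among them their own inhibitors, so that the signal shuts itself off. A slower branch of the pathway processes the NFKB2 precursor and works through RELB.

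Promoters of 9 of the 10 genes were matched by symbol in a RefSeq table of build GRCh38.p14, and RELB had no entry. Each window runs from 250 bases before to 50 bases after the gene start of that RefSeq table. This start can differ from the GENCODE bounds of the genes given below. By those bounds the 250 upstream bases of NFKB1, NFKB2, ICAM1 and TRAF1 lie inside the gene, and those of TNFAIP3, TNFAIP2 and BIRC3 partly. Those of SOD2, at chr6:159762282-159762531 on the minus strand, do not adjoin the measured gene, whose upstream bound is 159745186. The kappaB consensus, a motif of 10 letters searched on both strands, with no other motif searched, was present in 4 of these 9 windows. It was present in 5.91% of all 35116 windows of 300 bases (2075 windows). A match is a description of the letters and not a measured binding site. ICAM1 had the largest BCI response of the 10 and no exact match in its window. For this gene and the 4 with a match, the 250 bases upstream of the RefSeq start are given. They hold every match, in capitals. They lie at chr14:35404750-35404999 (NFKBIA, minus strand), chr6:137867009-137867258 (TNFAIP3, plus strand), chr10:102395455-102395704 (NFKB2, plus strand), chr11:102317234-102317483 (BIRC3, plus strand) and chr19:10270870-10271119 (ICAM1, plus strand), each read 5′ to 3′ along the gene's own strand.
NFKBIA: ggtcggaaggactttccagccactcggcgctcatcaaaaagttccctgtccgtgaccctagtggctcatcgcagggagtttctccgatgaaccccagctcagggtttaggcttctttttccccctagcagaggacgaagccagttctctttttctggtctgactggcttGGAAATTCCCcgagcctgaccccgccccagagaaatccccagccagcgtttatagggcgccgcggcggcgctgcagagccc
TNFAIP3: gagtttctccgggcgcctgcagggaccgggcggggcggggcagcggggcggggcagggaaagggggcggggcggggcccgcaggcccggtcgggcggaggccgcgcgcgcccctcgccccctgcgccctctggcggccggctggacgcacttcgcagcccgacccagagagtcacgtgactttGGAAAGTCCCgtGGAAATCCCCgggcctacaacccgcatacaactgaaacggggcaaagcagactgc
NFKB2: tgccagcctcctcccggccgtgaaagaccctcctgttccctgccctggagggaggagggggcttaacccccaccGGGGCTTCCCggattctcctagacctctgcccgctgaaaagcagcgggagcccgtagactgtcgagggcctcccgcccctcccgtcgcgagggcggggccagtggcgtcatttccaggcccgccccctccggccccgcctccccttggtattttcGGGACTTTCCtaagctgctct
BIRC3: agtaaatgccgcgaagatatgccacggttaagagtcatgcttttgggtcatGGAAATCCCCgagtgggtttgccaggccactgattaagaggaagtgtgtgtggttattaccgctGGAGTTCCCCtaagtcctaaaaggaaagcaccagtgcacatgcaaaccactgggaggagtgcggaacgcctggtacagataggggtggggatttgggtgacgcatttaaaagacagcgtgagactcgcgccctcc
ICAM1: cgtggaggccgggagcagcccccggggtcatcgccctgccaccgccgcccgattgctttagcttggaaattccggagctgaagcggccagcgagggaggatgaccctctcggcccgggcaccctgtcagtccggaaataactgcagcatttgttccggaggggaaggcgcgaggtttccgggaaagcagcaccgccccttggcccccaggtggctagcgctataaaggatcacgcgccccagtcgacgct
Counted from the RefSeq start, the NFKBIA match lies at -81 to -72 and the TNFAIP3 matches at -67 to -58 and -55 to -46. In NFKB2 they lie at -176 to -167 and -21 to -12, and in BIRC3 at -199 to -190 and -135 to -126. NFKB1, TNFAIP2, ICAM1, SOD2 and TRAF1 had no match, which says only that the consensus letters are not in that window. Sites that depart from the consensus were not searched.

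Libraries held 51799814 to 84452743 counts. The 7 erythroid and megakaryocytic markers GATA1, TAL1, KLF1, NFE2, HBG1, HBG2 and ITGA2B each had at least 1342 counts in every library, with summed levels of 1800 to 5400 CPM (a gene's share of its library's TMM-scaled total count). The biological coefficient of variation was 13.3% in the BCI table, 5.01% in the BI-D1870 table and 26.9% in the persistent-cell table. Calls are from the edgeR quasi-likelihood test with Benjamini-Hochberg adjustment over all genes of a table, at an adjusted p under 0.05, and fold changes are on the log2 scale. No source used here says whether the replicates came from separate cultures, so a p-value reflects no more than how far the sampled libraries varied, possibly for technical reasons. The tables were normalised and tested apart, and levels are compared within a table only.

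Per kilobase of exon the 10 genes covered a wide range of levels. In parental cells NFKB2, the precursor of the slow branch, stood at 27.4 ± 10.1 CPM per kilobase (SD, n = 2) and NFKBIA, the IkappaB-alpha inhibitor, at 27.1 ± 1.4 CPM per kilobase, a difference within their spread. TNFAIP3 followed at 14.7 ± 1.81, ICAM1 at 12.4 ± 2.69, NFKB1 at 10.1 ± 0.259, TNFAIP2 at 8.59 ± 2.53, RELB at 6.46 ± 3.23 and SOD2 at 4.9 ± 0.74 CPM per kilobase. In each step of this order from TNFAIP3 to SOD2 the difference was smaller than the larger of the 2 SDs. TRAF1 (0.594 ± 0.0453) and BIRC3 (0.579 ± 0.347 CPM per kilobase) were far below the others and level with each other. These 2 were the lowest of the 10 in all 10 groups, and the first rank was held by NFKB2 in 7 groups, NFKB1 in 2 and NFKBIA in 1. The exon length used for SOD2, 16493 bases, is the union of all its annotated exons.

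**Figure D1:**
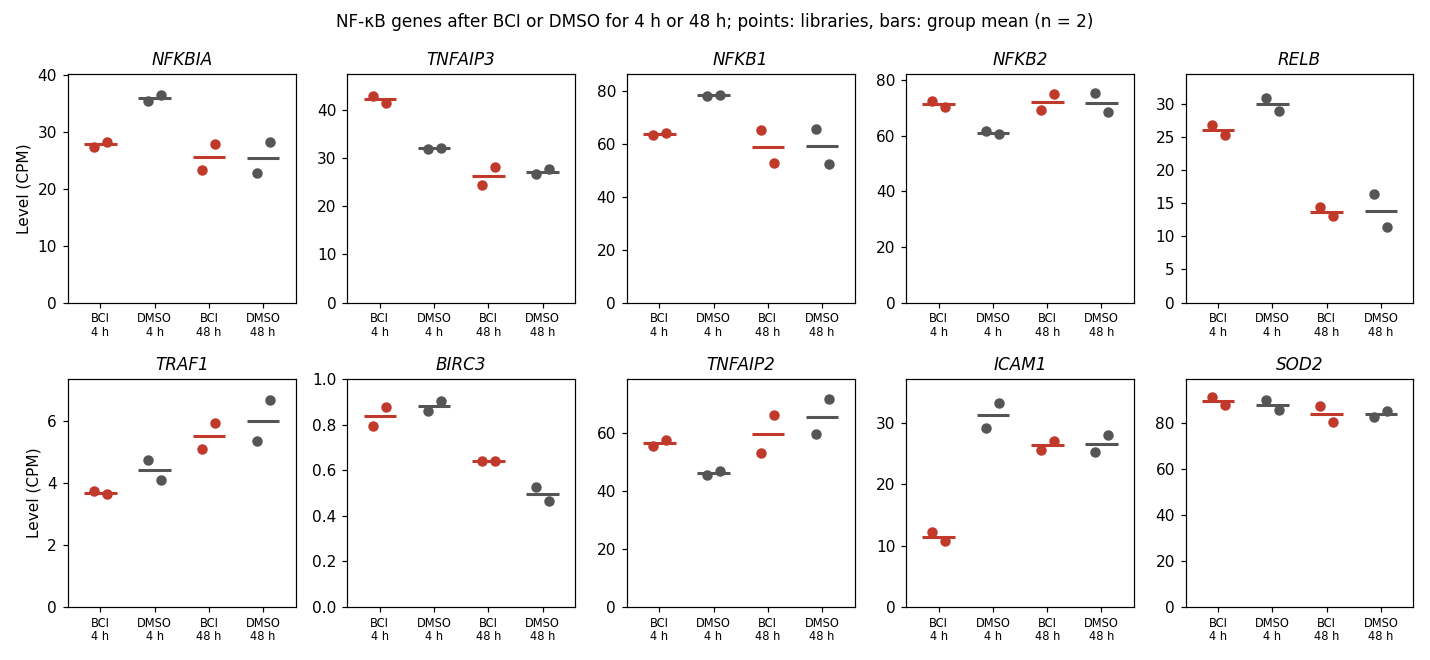
Level (CPM, y axes starting at 0) of each of the 10 genes in cells given BCI or DMSO for 4 h or 48 h; points are libraries and bars are group means (n = 2). ICAM1 stands at 12.2 and 10.7 CPM after 4 h of BCI, against 29.1 and 33.3 CPM in DMSO, while at 48 h the groups overlap.

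At 4 h BCI lowered the adhesion molecule gene ICAM1 and raised the feedback enzyme gene TNFAIP3, and the other 8 genes did not pass. Of all 21908 genes tested 10.7% were called, 4.8% higher and 5.94% lower, against 1 higher and 1 lower of the 10. The median log2 fold change of the 10 was -0.14, against 0.02 over all genes tested. ICAM1 (ENSG00000090339, chr19:10270835-10286615, plus strand) encodes a ligand of leukocyte integrins. It had 12.2 and 10.7 CPM in BCI-treated cells, against 29.1 and 33.3 CPM in DMSO-treated cells. Both BCI libraries lay far below both DMSO libraries, and the gene was 2.72-fold lower (log2 -1.44, SE 0.116, edgeR quasi-likelihood adjusted p = 0.00014). It kept its call in all 12 alternative settings, with log2 fold changes of -1.54 to -1.34. ICAM1 shares 23.6% of its exon bases with the antisense genes AC011511.2 and AC011511.5, and without a known strand setting their reads cannot be told apart.

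Positions of the 10 genes are those of GENCODE 29 on GRCh38. TNFAIP3 (ENSG00000118503, chr6:137867188-137883312, plus strand) encodes a ubiquitin-editing enzyme that damps signalling from TNF receptors. It had 42.9 and 41.3 CPM in BCI-treated cells, against 31.9 and 32 CPM in DMSO-treated cells, and the groups did not overlap. It was 1.32-fold higher (log2 0.40, SE 0.0949, edgeR quasi-likelihood adjusted p = 0.028), a call lost on leaving out any 1 of the 4 libraries (highest adjusted p = 0.20). NFKBIA (ENSG00000100906, chr14:35401511-35404749, minus strand), the IkappaB-alpha gene, had 27.4 and 28.3 CPM in BCI-treated cells, against 35.4 and 36.5 CPM in DMSO-treated cells. Both BCI libraries were lower, but with a log2 fold change of -0.37 (SE 0.125) the edgeR adjusted p was 0.10. It passed with DESeq2, with no low-count filter, with a replicate block and with only the 4 libraries compared in the fit.

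Among the subunits, NFKB1 (ENSG00000109320, chr4:102501329-102617302, plus strand), a precursor of the DNA-binding partner of RELA, had 63.3 and 64.2 CPM in BCI-treated cells, against 78.1 and 78.7 CPM in DMSO-treated cells. NFKB2 (ENSG00000077150, chr10:102394110-102402529, plus strand) had 72.3 and 70.4 CPM in BCI-treated cells, against 61.6 and 60.6 CPM in DMSO-treated cells. RELB (ENSG00000104856, chr19:45001430-45038198, plus strand), the partner of the processed NFKB2 product, had 26.9 and 25.3 CPM in BCI-treated cells, against 31 and 29 CPM in DMSO-treated cells. In each of these subunits the groups did not overlap, NFKB2 being higher and NFKB1 and RELB lower in BCI-treated cells. None passed, with edgeR adjusted p of 0.18 for NFKB1, 0.13 for NFKB2 and 0.49 for RELB. TNFAIP2 (ENSG00000185215, chr14:103123442-103137439, plus strand), a TNF-induced gene, was higher in both BCI libraries, at 55.5 and 57.5 CPM against 45.4 and 46.8 CPM in DMSO, without passing (log2 0.29, edgeR adjusted p = 0.18). With only the 4 libraries compared in the fit, NFKB1, NFKB2 and TNFAIP2 passed. TRAF1 (ENSG00000056558, chr9:120902393-120929173, minus strand), an adaptor of TNF receptors, had 3.74 and 3.64 CPM in BCI-treated cells, against 4.75 and 4.11 CPM in DMSO-treated cells (edgeR adjusted p = 0.41). BIRC3 (ENSG00000023445, chr11:102317450-102339403, plus strand), an inhibitor-of-apoptosis ubiquitin ligase, and SOD2 (ENSG00000112096, chr6:159669057-159745186, minus strand), the mitochondrial superoxide dismutase, overlapped between the groups (log2 -0.08 and 0.03).

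Wider genes of the pathway were taken from 8 lists of 77 genes. These were other subunits, IkappaB proteins, kinases with partner proteins, adaptors, ubiquitin enzymes with partner proteins, receptors, ligands and other targets. At 4 h, 6 rose and 8 fell of the 66 that were tested, and their median log2 fold change was -0.03. Over all genes tested 4.8% were called higher and 5.94% lower. RELA, the main activating subunit, stood at 166 ± 0.486 CPM in BCI-treated cells and 203 ± 1.98 CPM in DMSO-treated cells (SD, n = 2 each), a fall with a log2 fold change of -0.29. The IkappaB-like BCL3 fell to 11 and 10.8 CPM in BCI-treated cells, against 27.7 and 28.9 CPM in DMSO-treated cells (log2 -1.38, SE 0.144, edgeR adjusted p = 0.00054). Its relative NFKBID fell too (log2 -0.61), as did CHUK (-0.45), which encodes an IkappaB kinase, the adaptor MYD88 (-0.31) and the survival gene BCL2L1 (-0.36). Both called ligand genes fell, the lymphotoxin subunit LTB with a log2 fold change of -1.32 and the cytokine IL1B with -0.59. The deubiquitinases OTULIN (log2 0.65) and CYLD (0.46) rose, together with the adaptor kinase IRAK4 (0.41) and the ligand gene TNFSF9 (1.67), which was taken here as an NF-kappaB target. IL1R1 (log2 2.67) and TNFRSF11A (1.99) rose too, at low levels, with means of 1.04 and 0.52 CPM in BCI-treated cells and 0.162 and 0.13 CPM in DMSO-treated cells.

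At 48 h edgeR called 0 of the 21908 genes between BCI and DMSO, a share of 0%. In that comparison 316 genes had an unadjusted p under 0.05, none of them among the 10, and DESeq2 and limma-voom also called 0 genes. ICAM1 had 25.6 and 27.1 CPM in BCI-treated cells, against 25.2 and 28 CPM in DMSO-treated cells, and the libraries of the groups were interleaved. TNFAIP3 had 24.4 and 28.1 CPM in BCI-treated cells, against 26.7 and 27.6 CPM in DMSO-treated cells. The log2 fold changes of the 10 ran from -0.14 for TNFAIP2 to 0.37 for BIRC3, which has 35 to 65 counts per library in this table. A p that misses the threshold does not show that values were equal. Same-numbered BCI and DMSO libraries deviated together at 48 h (correlation 0.316 over genes), and no fit paired them at 48 h alone.

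The BCI response itself was compared between the times, as the log2 fold change at 48 h minus that at 4 h. In this test 3.46% of all genes were called, 2.08% with a positive difference, and ICAM1 was the single one of the 10 (difference 1.43, SE 0.16, edgeR adjusted p = 0.0024). It passed in all 15 alternative settings, with differences of 1.32 to 1.52. For TNFAIP3 the difference was -0.45 (SE 0.134, edgeR adjusted p = 0.12) and for TNFAIP2 it was -0.43 (SE 0.172, edgeR adjusted p = 0.23), so neither response is shown to differ between the times. Of the 66 wider pathway genes 5 passed, BCL3 (1.4), LTB (1.39) and IL1B (0.58) with a positive difference and TNFSF9 (-1.44) and OTULIN (-0.60) with a negative one.

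The DMSO libraries of the 2 times differed from each other as well. At 48 h against 4 h 26.6% of all genes were called, 13.5% higher and 13.2% lower, and of the 10 genes 1 rose and 3 fell. The median of the 10 was -0.23, against 0.04 over all genes. RELB had 16.4 and 11.4 CPM in DMSO at 48 h, against 31 and 29 CPM in DMSO at 4 h. It was 2.15-fold lower (log2 -1.11, SE 0.156, edgeR adjusted p = 0.0012) and kept its call in every alternative setting run. NFKBIA was lower at 48 h, with 22.7 and 28.2 CPM against 35.4 and 36.5 CPM at 4 h (log2 -0.50, edgeR adjusted p = 0.017), and so was NFKB1, with 65.7 and 52.6 CPM at 48 h against 78.1 and 78.7 CPM at 4 h (log2 -0.41, edgeR adjusted p = 0.04). TNFAIP2 was higher, with 59.6 and 71.5 CPM at 48 h against 45.4 and 46.8 CPM at 4 h (log2 0.51, edgeR adjusted p = 0.014). The NFKBIA, NFKB1 and TNFAIP2 calls were each lost without DMSO 4 h replicate 1 and without DMSO 4 h replicate 2, that of NFKBIA also without DMSO 48 h replicate 1 and that of NFKB1 also without DMSO 48 h replicate 2. Of the wider pathway genes, 10 rose and 17 fell of 66. TRAF3, an adaptor that restrains the slow branch, was at -1.18, the chemokine CXCL8 at -3.39 and IL1B at 1.04. CXCL8 was at a low level in DMSO at 48 h, 0.496 ± 0.375 CPM, against 5.18 ± 0.351 CPM in DMSO at 4 h (SD, n = 2 each).

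**Figure D2:**
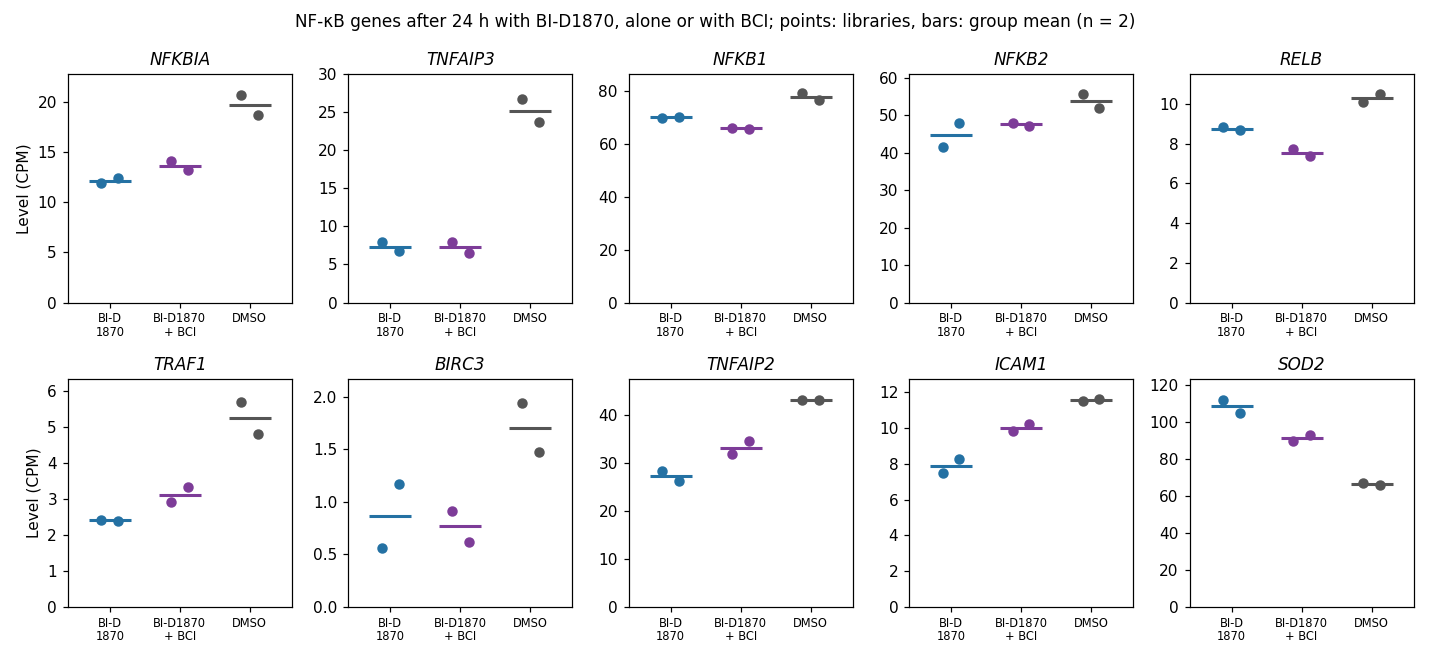
Level (CPM, y axes starting at 0) of each of the 10 genes after 24 h with BI-D1870, BI-D1870 with BCI, or DMSO; points are libraries and bars are group means (n = 2). TNFAIP3 lies between 6.51 and 7.97 CPM in the 4 treated libraries, against 26.8 and 23.7 CPM in DMSO, and SOD2 alone is higher in the treated cells.

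BI-D1870 lowered 8 of the 10 genes at 24 h and raised 1, SOD2. The background is high here, since 47.1% of the 21328 genes tested were called, 22.8% higher and 24.3% lower. The count of 8 lower genes of 10 is above the share of genes called lower, and the median of the 10 was -0.61, against -0.01 over all genes. The 10 genes were chosen with earlier results of these data known, so the count is a description and not a test. In all 10 the libraries of the groups did not overlap. The share of all genes without overlap was not computed, so this count has no background.

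The inhibitor genes TNFAIP3 and NFKBIA fell. TNFAIP3 had 7.9 and 6.78 CPM in BI-D1870-treated cells, against 26.8 and 23.7 CPM in DMSO-treated cells. It was 3.45-fold lower (log2 -1.79, SE 0.11, edgeR quasi-likelihood adjusted p = 7.2e-11), the largest fall of the 10. NFKBIA had 11.9 and 12.4 CPM in BI-D1870-treated cells, against 20.7 and 18.7 CPM in DMSO-treated cells, and was 1.62-fold lower (log2 -0.70, SE 0.0872, edgeR adjusted p = 1.5e-06). Both kept their calls in all 12 alternative settings, and the TNFAIP3 values ran from -1.90 to -1.64.

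Falls of the subunits were small. NFKB2 had 41.6 and 47.9 CPM in BI-D1870-treated cells, against 55.7 and 51.9 CPM in DMSO-treated cells (log2 -0.26, SE 0.0636, edgeR adjusted p = 0.0018). NFKB1 had 69.9 and 70.0 CPM in BI-D1870-treated cells, against 79.2 and 76.4 CPM in DMSO-treated cells (log2 -0.15, SE 0.0468, edgeR adjusted p = 0.01). RELB had 8.84 and 8.68 CPM in BI-D1870-treated cells, against 10.1 and 10.5 CPM in DMSO-treated cells, and did not pass (log2 -0.24, edgeR adjusted p = 0.065). Treated libraries lay below both controls for all 3 genes, by 1.11-fold for NFKB1, 1.2-fold for NFKB2 and 1.18-fold for RELB. The NFKB2 call was lost without BI-D1870 replicate 1, and the NFKB1 call without DMSO replicate 1, without BI-D1870 replicate 2 and with no low-count filter.

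The adaptor gene TRAF1 and the ubiquitin ligase gene BIRC3 had larger falls than the subunits. TRAF1 had 2.42 and 2.4 CPM in BI-D1870-treated cells, against 5.72 and 4.83 CPM in DMSO-treated cells, and was 2.19-fold lower (log2 -1.13, SE 0.166, edgeR adjusted p = 1.1e-05). BIRC3 had 0.562 and 1.17 CPM in BI-D1870-treated cells, against 1.94 and 1.47 CPM in DMSO-treated cells (log2 -0.96, SE 0.332, edgeR adjusted p = 0.023). It has 30 to 106 counts per library in this table, and the call was lost without DMSO replicate 1 (log2 -0.75) and without BI-D1870 replicate 1 (log2 -0.54).

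Of the targets outside the pathway itself, TNFAIP2 had 28.5 and 26.4 CPM in BI-D1870-treated cells, against 43.3 and 43.3 CPM in DMSO-treated cells, and was 1.58-fold lower (log2 -0.66, SE 0.0642, edgeR adjusted p = 5.1e-08). ICAM1 had 7.49 and 8.26 CPM in BI-D1870-treated cells, against 11.5 and 11.6 CPM in DMSO-treated cells, and was 1.47-fold lower (log2 -0.55, SE 0.101, edgeR adjusted p = 0.00013). SOD2 went the other way, with 112 and 105 CPM in BI-D1870-treated cells, against 67 and 65.7 CPM in DMSO-treated cells. It was 1.64-fold higher (log2 0.71, SE 0.0476, edgeR adjusted p = 2.6e-10), and all 3 targets kept their calls in all 12 alternative settings. SOD2 shares 6.93% of its exon bases with another SOD2 identifier and with WTAP, and how many of its reads come from those bases was not measured.

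Other measures moved with these falls. The summed level of the 7 line markers was 4260 to 4370 CPM in BI-D1870-treated cells and 5230 to 5400 CPM in DMSO-treated cells. The summed level of 5 monocyte markers was 4.96 to 5.19 CPM in BI-D1870-treated cells and 28.5 to 33.4 CPM in DMSO-treated cells, almost all of it from VCAN. FCGR3A, a defining marker, was at 0 in both BI-D1870 libraries and in 1 DMSO library, CD163 had at most 6 counts and CD14 at most 14 in these 4 libraries. The summed level of 6 lymphoid markers was 5.12 to 5.15 CPM in BI-D1870-treated cells and 20.1 to 21.3 CPM in DMSO-treated cells, led by CD2. CD3D and MS4A1, defining markers of T and B cells, were at 0 in all 4. Mitochondrially encoded genes took 6.17% and 6.2% of counts in BI-D1870-treated cells, against 3.58% and 3.64% in DMSO-treated cells. Their part in the falls of the 10 genes was not tested, and in bulk RNA fewer cells of a type and less RNA per cell cannot be told apart.

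**Figure D3:**
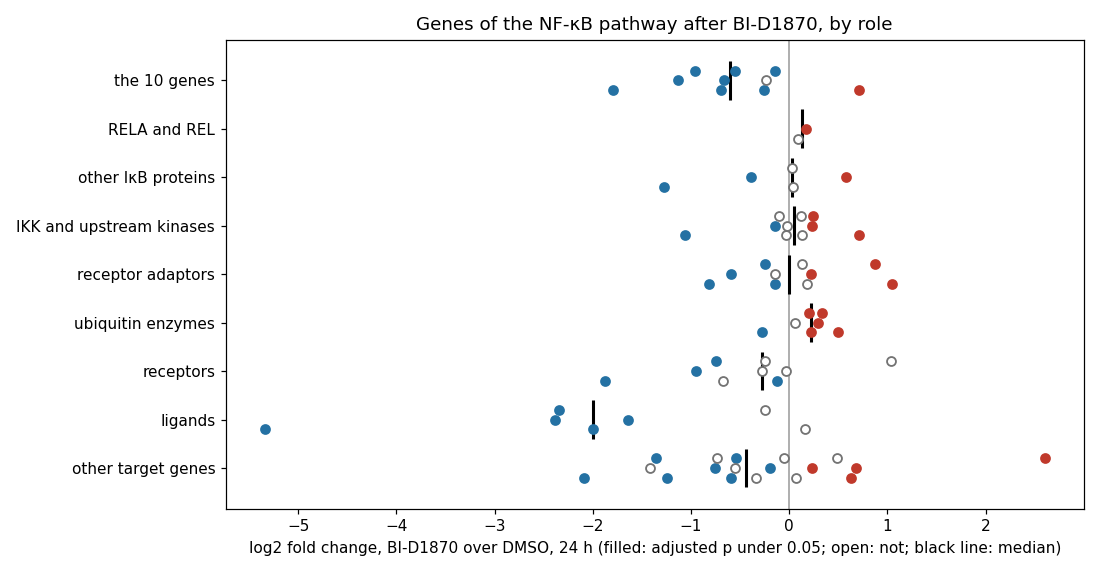
Log2 fold change (x axis) of each tested gene after 24 h of BI-D1870 over DMSO, by role in the NF-kappaB pathway (rows); filled points passed at an adjusted p under 0.05, open points did not, and black lines are medians. The 10 genes have a median of -0.61 and the ligands one of -2, while kinases and adaptors lie on both sides of 0. The rows of kinases and of ubiquitin enzymes also hold partner proteins that are not enzymes.

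Across the 8 wider lists BI-D1870 raised 17 and lowered 25 of 68 genes tested, with a median of -0.11. Over all genes tested 22.8% were called higher and 24.3% lower. Ligand genes leaned lowest, with 5 of 7 lower and a median of -2. IL1B had 2.27 and 2.32 CPM in BI-D1870-treated cells, against 98.3 and 87.8 CPM in DMSO-treated cells (log2 -5.34, SE 0.0929, edgeR adjusted p = 1.3e-18). IL1A (-2.39), CD40LG (-2.34) and TNFSF13B (-2) were called from levels under 1 CPM. Of 9 receptors 4 fell, among them the TNF receptor TNFRSF1A, with 42.7 ± 0.552 CPM in BI-D1870-treated cells and 82.7 ± 1.47 CPM in DMSO-treated cells (SD, n = 2 each, log2 -0.95), TLR4 (-0.75), IL1R1 (-1.88) and LTBR (-0.12).

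Inside the signalling chain the directions were mixed, as they were over all genes, of which 22.8% were called higher and 24.3% lower. Of 10 adaptors 3 rose and 4 fell, with TRADD (1.05) and RIPK1 (0.87), which sit on the TNF receptor, higher and TRAF5 (-0.82) and IRAK1 (-0.59) lower. Of 10 kinases and kinase partners 3 rose and 2 fell. Higher were MAP3K14 (0.71), the kinase of the slow branch, the partner protein TAB3 (0.24) and MAP3K7 (0.23), and IKBKE was lower (-1.06). Ubiquitin enzymes and their partner proteins had 5 of 7 higher, such as TNIP2 (0.50), SHARPIN (0.33) and OTULIN (0.29), and TNIP1 lower (-0.28). RELA rose slightly (0.17), NFKBIZ rose (0.58), and BCL3 fell to 6.74 and 8.32 CPM in BI-D1870-treated cells, against 21 and 15.8 CPM in DMSO-treated cells (-1.28). NFKBID fell as well (-0.39). Of 18 other targets 4 rose and 7 fell, with GADD45B at 2.60 and FAS (-1.36), PTX3 (-2.09) and TNFRSF9 (-1.24) lower.

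BI-D1870 with BCI was set against the same DMSO libraries, so the comparison shares its controls with the one for BI-D1870 alone. Of all genes 46.8% were called, 22.6% higher and 24.3% lower, and of the 10 genes 1 rose and 8 fell, with a median of -0.42 against -0.01 over all genes. TNFAIP3 had 7.97 and 6.51 CPM in cells given the pair, against 26.8 and 23.7 CPM in DMSO-treated cells (log2 -1.80, SE 0.108, edgeR adjusted p = 4.7e-11). NFKBIA had 14.1 and 13.2 CPM with the pair, against 20.7 and 18.7 CPM in DMSO (log2 -0.53, edgeR adjusted p = 3.2e-05). Treated libraries of both genes lay below both controls.

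RELB passed with the pair, at 7.74 and 7.36 CPM against 10.1 and 10.5 CPM in DMSO (log2 -0.45, SE 0.102, edgeR adjusted p = 0.001), while ICAM1 did not, at 9.84 and 10.2 CPM against 11.5 and 11.6 CPM in DMSO (log2 -0.21, edgeR adjusted p = 0.092). TRAF1 had 2.93 and 3.33 CPM with the pair, against 5.72 and 4.83 CPM in DMSO (log2 -0.75, edgeR adjusted p = 6e-04). BIRC3 had 0.912 and 0.618 CPM with the pair, against 1.94 and 1.47 CPM in DMSO, a fall of -1.15 on the log2 scale (edgeR adjusted p = 0.0071) that was lost without DMSO replicate 1 and without replicate 2 of the pair. TNFAIP2 (log2 -0.38), NFKB1 (-0.24) and NFKB2 (-0.18) fell by less, and the NFKB2 call (edgeR adjusted p = 0.024) was lost without DMSO replicate 1 and without either library of the pair. SOD2 had 89.5 and 93.2 CPM with the pair, against 67 and 65.7 CPM in DMSO (log2 0.46, SE 0.0475, edgeR adjusted p = 1e-07). Monocyte markers summed to 4.03 to 4.06 CPM with the pair and 28.5 to 33.4 CPM in DMSO, and mitochondrially encoded genes took 5.72% and 5.28% with the pair, against 3.58% and 3.64% in DMSO. Their part was not tested.

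Set directly against BI-D1870 alone, the addition of BCI changed 2 of the 10 genes, at a background of 4.71% of all genes, 2.22% higher and 2.48% lower. TNFAIP2 was higher, with 31.9 and 34.6 CPM with the pair, against 28.5 and 26.4 CPM with BI-D1870 alone (log2 0.28, SE 0.0643, edgeR adjusted p = 0.015). SOD2 was lower, with 89.5 and 93.2 CPM with the pair, against 112 and 105 CPM with BI-D1870 alone (log2 -0.25, SE 0.0466, edgeR adjusted p = 0.003). In both genes the groups did not overlap and the pair stood between BI-D1870 alone and DMSO. The TNFAIP2 call was lost without BI-D1870 replicate 2 and without replicate 2 of the pair, the SOD2 call without replicate 1 of either group. ICAM1 (log2 0.34, edgeR adjusted p = 0.058) and TRAF1 (0.38, edgeR adjusted p = 0.26) were higher with the pair in both libraries and did not pass. TNFAIP3 lay at -0.02 (SE 0.116, edgeR adjusted p = 0.97) with overlapping groups. IL1B was higher with the pair, at 4.66 and 4.09 CPM against 2.27 and 2.32 CPM with BI-D1870 alone (log2 0.93, edgeR adjusted p = 7.6e-05), and of the wider pathway genes 5 rose and 1, TRAF5, fell. The 7 line markers summed to 3430 to 3800 CPM with the pair and 4260 to 4370 CPM with BI-D1870 alone, and mitochondrially encoded genes took 5.72% and 5.28% with the pair, against 6.17% and 6.2% with BI-D1870 alone. Their part was not tested.

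**Figure D4:**
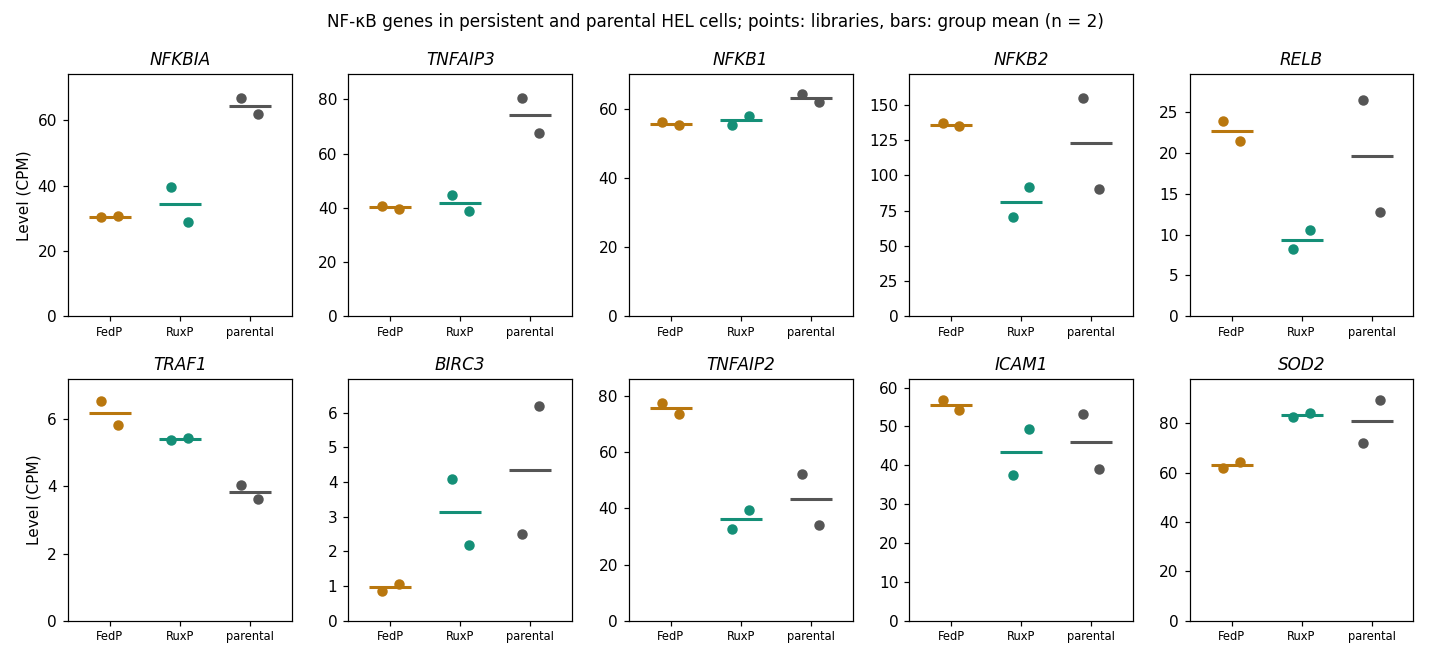
Level (CPM, y axes starting at 0) of each of the 10 genes in FedP, RuxP and parental cells; points are libraries and bars are group means (n = 2). NFKBIA lies at 28.9 to 39.7 CPM in the 4 persistent libraries, against 66.7 and 62 CPM in parental cells, while NFKB2 and RELB differ widely between the parental libraries.

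Libraries of the persistent-cell table stood apart within their groups. The standard deviation of the log2 difference between the 2 libraries of a group, over genes, was 0.356 for FedP, 1.09 for RuxP and 0.952 for parental cells. By this measure RuxP replicate 2 was nearer to the FedP (0.768 and 0.749) and parental libraries (0.956 and 1.07) than to RuxP replicate 1. Parental replicate 1 was nearer to the FedP libraries (0.882 and 0.884) than to parental replicate 2. Mitochondrially encoded genes took 12.4% and 12.6% of counts in FedP, 25.7% and 23.1% in RuxP and 15.6% and 23.6% in parental cells. Monocyte markers summed to 2.83 to 3.19 CPM in FedP, 1.92 to 4.43 CPM in RuxP and 27.3 to 32.7 CPM in parental cells, mostly from VCAN, with FCGR3A at 0 to 4 counts in these 6 libraries. The 7 line markers summed to 3580 to 3660 CPM in FedP, 1800 to 2150 CPM in RuxP and 2930 to 4430 CPM in parental cells. The part of these measures in what follows was not tested.

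NFKBIA and TNFAIP3 were lower in both persistent lines. NFKBIA had 30.3 and 30.6 CPM in FedP cells and 39.7 and 28.9 CPM in RuxP cells, against 66.7 and 62 CPM in parental cells. TNFAIP3 had 40.6 and 39.7 CPM in FedP cells and 44.6 and 38.7 CPM in RuxP cells, against 80.6 and 67.7 CPM in parental cells. Neither gene overlapped between a persistent line and the parental cells. NFKBIA was 2.11-fold lower in FedP (log2 -1.08, SE 0.194, edgeR quasi-likelihood adjusted p = 0.031) and 1.88-fold lower in RuxP (log2 -0.91, SE 0.194, edgeR adjusted p = 0.049). TNFAIP3 was 1.85-fold lower in FedP (log2 -0.89, SE 0.167, edgeR adjusted p = 0.035) and 1.78-fold lower in RuxP (log2 -0.83, SE 0.167, edgeR adjusted p = 0.041). No other of the 10 passed in either line, against a background of 6.63% of 15924 genes called for FedP (3.84% higher, 2.79% lower) and 6.44% for RuxP (4.28% higher, 2.17% lower). The median of the 10 was -0.02 in FedP, against 0.01 over all genes, and -0.37 in RuxP, against -0.04 over all genes. These comparisons share the parental libraries.

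The 4 calls were near the threshold. All were lost with a replicate block and without either library of the persistent line, and the RuxP call of NFKBIA was also lost without parental replicate 1 and with DESeq2 size factors. With only the groups compared in the fit, both RuxP calls and the FedP call of TNFAIP3 were lost. The highest edgeR adjusted p among the alternatives was 0.16 in RuxP and 0.36 in FedP. Their direction held in all 12 alternative settings, with NFKBIA at -1.13 to -1.05 in FedP and -1.16 to -0.70 in RuxP, and TNFAIP3 at -1.01 to -0.78 in FedP and -0.95 to -0.69 in RuxP.

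The slow-branch subunits differed widely between the 2 parental libraries. NFKB2 had 137 and 135 CPM in FedP and 70.7 and 92.1 CPM in RuxP, against 155 and 90.5 CPM in parental cells. RELB had 23.9 and 21.4 CPM in FedP and 8.17 and 10.6 CPM in RuxP, against 26.5 and 12.7 CPM in parental cells. For both genes parental replicate 1, with the lower mitochondrial share, lay near FedP, and parental replicate 2 near RuxP. Neither passed in FedP (log2 0.15 and 0.21) or in RuxP (log2 -0.59 and -1.06, edgeR adjusted p = 0.26 and 0.14). Without parental replicate 2 both passed as lower in RuxP (NFKB2 -0.93, RELB -1.50), RELB in RuxP passed also with DESeq2 and with no low-count filter, and without parental replicate 1 RELB passed as higher in FedP (0.81). NFKB1 had 56.2 and 55.2 CPM in FedP and 55.4 and 57.9 CPM in RuxP, against 64.4 and 62.1 CPM in parental cells, and passed neither in FedP (edgeR adjusted p = 0.46) nor in RuxP (0.52).

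TRAF1 was higher in all 4 persistent libraries, with 6.52 and 5.82 CPM in FedP and 5.37 and 5.44 CPM in RuxP, against 4.04 and 3.62 CPM in parental cells. It did not pass in FedP (log2 0.69, edgeR adjusted p = 0.096) or RuxP (log2 0.50, edgeR adjusted p = 0.19). BIRC3 had 0.856 and 1.07 CPM in FedP and 4.1 and 2.19 CPM in RuxP, against 2.51 and 6.2 CPM in parental cells. Both FedP libraries were the lowest, the parental libraries were far apart, and the difference did not pass (log2 -2.18, SE 0.538, edgeR adjusted p = 0.069). It passed in FedP with DESeq2, with no low-count filter and without parental replicate 1.

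TNFAIP2 had 77.5 and 73.6 CPM in FedP and 32.8 and 39.3 CPM in RuxP, against 52.2 and 34.2 CPM in parental cells. FedP lay above all other libraries, with a log2 fold change of 0.81 that did not pass (SE 0.235, edgeR adjusted p = 0.10) and passed without parental replicate 1 (1.12), with DESeq2 and with no low-count filter. ICAM1 had 56.7 and 54.2 CPM in FedP and 37.5 and 49.4 CPM in RuxP, against 53.1 and 39 CPM in parental cells. SOD2 had 62 and 64.2 CPM in FedP and 82.6 and 84.3 CPM in RuxP, against 72.2 and 89.5 CPM in parental cells. Both overlapped between RuxP and parental cells, and in FedP both libraries of ICAM1 were higher and both of SOD2 lower without passing (log2 0.27 and -0.36). SOD2 and TRAF1 passed in FedP without parental replicate 1, at -0.53 for SOD2 and 0.74 for TRAF1.

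Between the persistent lines edgeR called none of the 10 genes, against a background of 1.39% of all genes, and 5 of the 10 had an unadjusted p under 0.05, as had 5103 of all 15924 genes. DESeq2 called 4 of the 10, limma-voom 0. FedP was above RuxP in both libraries for RELB (log2 1.27, SE 0.359, edgeR adjusted p = 0.10), TNFAIP2 (1.07, SE 0.237, edgeR adjusted p = 0.083) and NFKB2 (0.74, SE 0.281, edgeR adjusted p = 0.14), and below it for BIRC3 (-1.71, SE 0.533, edgeR adjusted p = 0.11) and SOD2 (-0.40, edgeR adjusted p = 0.15). Mitochondrially encoded genes took 12.4% and 12.6% in FedP and 25.7% and 23.1% in RuxP, and their part was not tested.

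Of the wider pathway genes 64 were tested in the persistent lines. In FedP 2 rose and 3 fell, beside 6.63% of all genes called, namely the TNF receptor TNFRSF1B (log2 3.99), GADD45B (2.03), CD40LG (-6.34), CD40 (-1.21) and NFKBIZ (-1.02). In RuxP 0 rose and 2 fell, beside 6.44% of all genes called, namely CD40LG (-4.06) and the chemokine CXCL3 (-2.01). CD40LG, a ligand of the receptor CD40, had 0.141 and 0.0719 CPM in FedP and 0.865 and 0.205 CPM in RuxP, against 6.7 and 10.9 CPM in parental cells. Between FedP and RuxP 0 of the 64 passed with edgeR, and 15 had an unadjusted p under 0.05, as had 5103 of all 15924 genes.

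**Figure D5:**
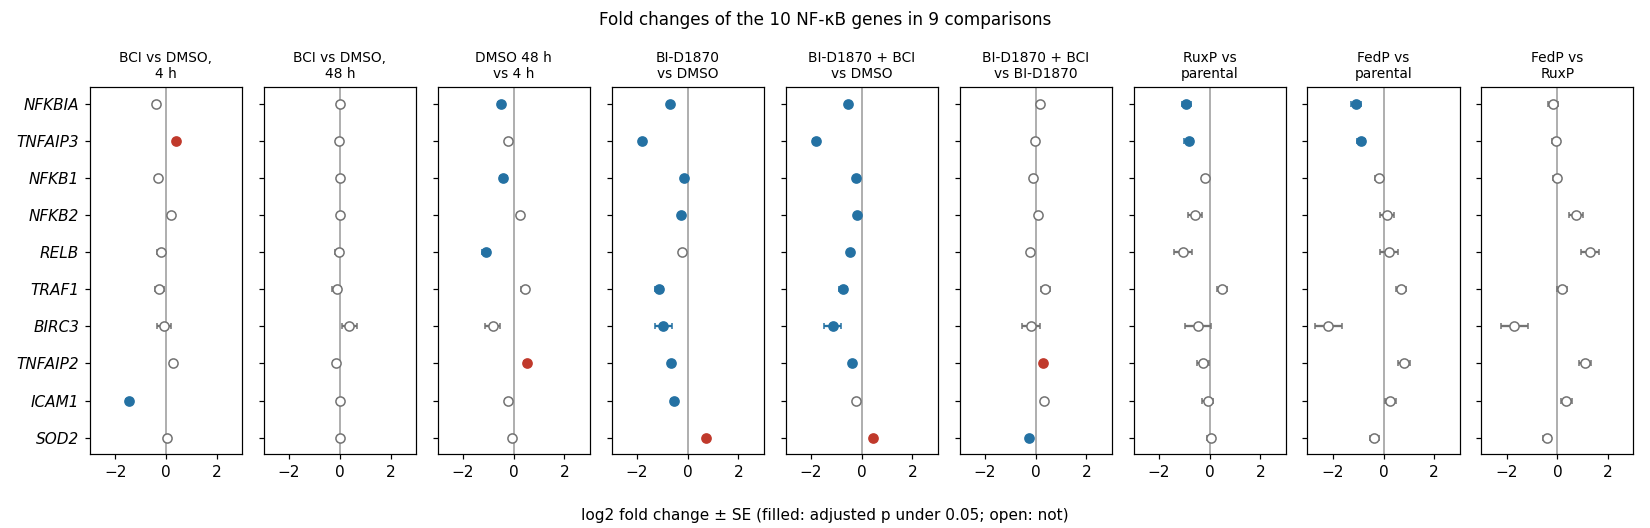
Log2 fold change (x axes, bars are SE) of each of the 10 genes (rows) in 9 comparisons (panels); filled points passed at an adjusted p under 0.05, open points did not. NFKBIA and TNFAIP3 are filled and lower in the 4 panels for BI-D1870, the pair, RuxP and FedP, and ICAM1 is filled and lower after 4 h of BCI (-1.44) but not at 48 h.

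Side by side over the 6 comparisons with controls, which in part share those controls, the 10 genes had different profiles. NFKBIA and TNFAIP3 were lower in BI-D1870, the pair, RuxP and FedP, with TNFAIP3 at -1.79, -1.80, -0.83 and -0.89 and NFKBIA at -0.70, -0.53, -0.91 and -1.08. At 4 h of BCI TNFAIP3 was at 0.40, and NFKBIA, which did not pass, was at -0.37. ICAM1 was lowest after 4 h of BCI (-1.44) and at -0.55 after BI-D1870. By Euclidean distance between these 6 log2 fold changes, the nearest of 9878 genes to NFKBIA was TPM1 (0.295), to TNFAIP3 COLGALT2 (0.405) and to ICAM1 RGS19 (0.534). The nearest to NFKB1 was TRIM38 (0.145), to NFKB2 CMTM4 (0.146), to RELB MED25 (0.191), to TNFAIP2 CMTM8 (0.219) and to SOD2 CCSER2 (0.164). TRAF1 and BIRC3, with a mean under 4 CPM in at least 1 table, had INO80C (0.351) and LINC02772 (0.775) as their nearest genes. None of the 10 had another of them among its nearest 100 genes, except BIRC3, for which NFKBIA ranked 58. At their low level TRAF1 and BIRC3 could not be neighbours, so only 7 or 8 others of the 10 could be found. No background was computed for this count, and nothing is read from it.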

How the data were processed

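Gene expression was measured in 20 libraries of 10 groups, and the deposited values are raw counts, whole numbers for each gene, in 3 tables. Bulk RNA had been treated with DNase and sequenced on an Illumina NovaSeq, per the labels' protocols. Per the submitters' processing notes, the tools were bcl2fastq, STAR 2.5.1a and edgeR with build GRCh38. The counting program, its annotation and its strand setting are not given in the sources read. Repeated gene lines with the same counts were kept once. Each table was fitted alone with edgeR 4.0.16 in R 4.3.3 (TMM scaling, filterByExpr by group, quasi-likelihood test, Benjamini-Hochberg adjustment over all genes of the table, threshold 0.05), with all groups of the table in the fit and no replicate block. CPM is the edgeR value on TMM-scaled library sizes. Alternatives were DESeq2 1.42.0, limma-voom (limma 3.58.1), DESeq2 size factors, no filter, a stricter filter on the mean (1 CPM), halved counts, a replicate block, only the groups compared, and each library left out.

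Between 59.8% and 73.1% of counts from 1 to 20 were even, and the halved counts treat the case that both mates of a pair had been counted. The fit was tested on simulated data, where 43.3%, 68.7% and 93.9% of genes changed by 1.5, 2 and 4-fold were recovered for BCI at 4 h over 21908 genes. For BI-D1870 these shares were 67.2%, 77.6% and 93.9% over 21328 genes, and for RuxP 0%, 10.4% and 71.2% over 15924 genes. Each simulation changed only 67, 67 and 66 genes by these folds, and genes with low counts were left out of the draw. All other genes were left unchanged, unlike in the data, so the shares do not give the recovery in the data. Of the unchanged genes 10 were called for BCI, 2 for BI-D1870 and 3 for RuxP. Genes named are the 10 in every comparison, and of each of the 8 wider lists at most 4 called genes with the largest absolute log2 fold change. Likeness is the nearest gene over 6 comparisons among genes whose mean reached 4 CPM in each table. The 10 genes and the lists were chosen with earlier results of these data known. The list of line markers held 1 further gene, which is not reported here and is left out of the sums.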

Additional observations from a re-analysis of the deposited data

Results flagged for a closer look

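The BCI response of ICAM1 differed between the times by the test of the difference itself. The log2 fold change at 48 h minus that at 4 h was 1.43 (SE 0.16, edgeR quasi-likelihood adjusted p = 0.0024). ICAM1 was lower in both BCI libraries at 4 h, and the BCI and DMSO libraries overlapped at 48 h. The later columns are headed 24 h and labelled 48 h, so the length of the later treatment is uncertain. The summed level of 5 monocyte markers was 4.48 to 4.66 CPM with BCI and 3.29 to 3.58 CPM with DMSO at 4 h. Most of it was VCAN, with means of 3.32 CPM with BCI and 2.19 CPM with DMSO. Of the 3 markers tested 0 passed, and CSF1R was lower with BCI (means 0.707 against 0.85 CPM). The part of this sum in the ICAM1 result was not tested.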

How the results depend on the processing

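Of 1224 log2 fold changes of the 10 genes under alternatives, 45 lost a call, 38 gained one and none changed sign while called. With 2 libraries a group, leaving one out tests the lone library as if it varied like the other groups. At BCI 4 h, where 2 genes were called, 6 were called with only the groups compared and 1 with any library left out. For DMSO at 48 h against 4 h, with 4 called, leaving out a library gave 1 to 4. For the pair against BI-D1870 alone, with 2 called, it gave 1 each time. For RuxP, with 2 called, DESeq2 size factors gave 1, only the groups compared 0 and leaving out a library 0 to 4. For FedP, with 2 called, no filter gave 4, DESeq2 4, only the groups compared 1 and leaving out a library 0 to 7. For FedP against RuxP, with 0 called, no filter gave 3, DESeq2 4 and only the groups compared 5. Counts over all genes moved by more than 1.5 times for BCI at 4 h (2354, range 2099 to 5501, and 574 to 730 with a library left out), BCI at 48 h (0, up to 27 with no filter), the difference of responses (757, 727 to 1658, and 98 to 1741), DMSO over time (5837, 4636 to 6781, and 2576 to 6080), the pair against BI-D1870 (1004, 942 to 1314, and 358 to 517), RuxP (1026, 324 to 2469, and 165 to 4316), FedP (1055, 272 to 2573, and 99 to 5380) and FedP against RuxP (222, 0 to 5771, and 0). With BI-D1870 and with the pair the count of 9 genes stayed within 7 to 10. BIRC3 gave no value in 6 settings, and the causes of these changes were not tested.

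With a replicate block 0 of the 10 genes were called in RuxP and 0 in FedP, 3 at BCI 4 h, 4 for DMSO over time, 9 for BI-D1870, 9 for the pair, 2 for the pair against BI-D1870 alone, 1 for the difference of responses and 0 for BCI at 48 h and FedP against RuxP. Deviations of same-numbered libraries correlated at 0.316 between DMSO and BCI at 48 h, 0.119 between the pair and DMSO at 24 h and -0.222 between RuxP and parental cells, and at -0.0448 to 0.0456 in the other checks. At 48 h same-numbered libraries of BCI and DMSO were also nearer (Pearson r 0.9904 and 0.9899) than the 2 libraries of DMSO (0.9854) or of BCI (0.9873). The block was run over all groups of a table and not at 48 h alone. In the reported fits the replicate numbers were read as names, and what a pairing at 48 h would change was not tested.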
